A study of Mus musculus with 46 samples.

Results

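The genes described here are 10 markers of blood vessel lining cells: Pecam1, Cdh5, Tie1, Tek, Esam, Eng, Vwf, Cd34, Plvap and Emcn. They were chosen by symbol from the 21671 genes of the deposited expression table, with earlier results of these data known. All 10 passed the filter on low values (at least 1 eRPKM in at least 3 animal IDs), as did 14566 genes in all. The unit, eRPKM, is the number of reads on the exons of a gene, scaled to its exon length in kilobases and to the library size (RPKM).

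RNA was sequenced from 46 mouse liver samples of the FVB strain, which carry 31 animal IDs. Control liver came from 11 IDs with 1 library each, and the labels do not state which transgenes, if any, these mice carried. Myc tumours (genotype tet-Myc/LAPtTA, transgene on) came from 7 IDs with 16 libraries. Myc-off tumours came from 3 IDs with 8 libraries, all taken when mice with Myc tumours had been fed doxycycline for 16 h to shut the transgene off. MycVD tumours came from 10 IDs with 11 libraries and carry tet-MycVD/LAPtTA, in which Myc has the V394D substitution. In all 3 tumour groups the liver-specific driver LAPtTA had switched the transgene on before birth. Endothelial cells are therefore host cells of these tumours, not cells in which the driver is meant to act. Ages are not given in the labels. Samples are pieces of whole tissue, so fewer endothelial cells and less RNA per endothelial cell cannot be told apart.

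Endothelial cells hold together through junction proteins such as VE-cadherin (Cdh5), PECAM-1 (Pecam1) and ESAM (Esam), and they receive signals through the receptor kinases TIE2 (Tek) and TIE1 (Tie1) and the TGF-beta family co-receptor endoglin (Eng). In healthy liver most capillaries are sinusoids, whose lining is perforated, lacks a basement membrane and carries scavenger receptors such as stabilin-2 (Stab2). Capillaries with a continuous lining, as in many other organs and in many liver tumours, carry the sialomucin CD34, while sinusoids carry little of it.

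All 10 genes were read in every library, with the lowest at 17 reads (Cd34 in control ID142608). Their highest coverage was 373 reads per kb (Eng in a control). The depth recovered from the values ran from 5.63 to 8.95 M reads in control libraries, from 7.27 to 12.65 M for Myc, from 3.25 to 10.37 M for Myc-off and from 6.18 to 10.56 M for MycVD libraries. In 8 libraries (1 control, 5 Myc and 2 MycVD) the reference gene Gapdh lay at 15.0 to 27.1 eRPKM, apart from the other 38 libraries at 35.2 to 99.2. All Myc-off IDs carry higher numbers than the other groups, and all MycVD IDs higher numbers than the Myc IDs. A date or batch that goes with the number cannot be told apart from the group in these comparisons.

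The sum of these 10 markers overlapped between liver and tumours, while its makeup differed. The summed level of the 10 genes ran from 106 to 207 eRPKM over control IDs (median 128) and from 109 to 144 over Myc IDs (median 121). It ran from 89.0 to 149 over Myc-off IDs (median 134) and from 84.3 to 137 over MycVD IDs (median 119). The 4 ranges overlap. Of this sum, Eng made up 24.2% in control liver and 9.34 to 10.7% in the 3 tumour groups. Cd34 made up 1.69% in control liver and 12.9 to 14.7% in the tumour groups. In control liver the order of the mean levels was Eng, Plvap, Cdh5, Pecam1, Esam, Tie1, Tek, Cd34, Vwf and Emcn. In Myc tumours it was Plvap, Pecam1, Cdh5, Cd34, Eng, Esam, Tie1, Emcn, Tek and Vwf. Many neighbours in these orders lie within 1 SD of each other, such as Cd34 and Vwf in control liver (2.48 ± 0.825 and 2.07 ± 0.939 eRPKM) and Pecam1 and Cdh5 in Myc tumours (20.1 ± 2.83 and 17.7 ± 2.65).

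**Figure D1:**
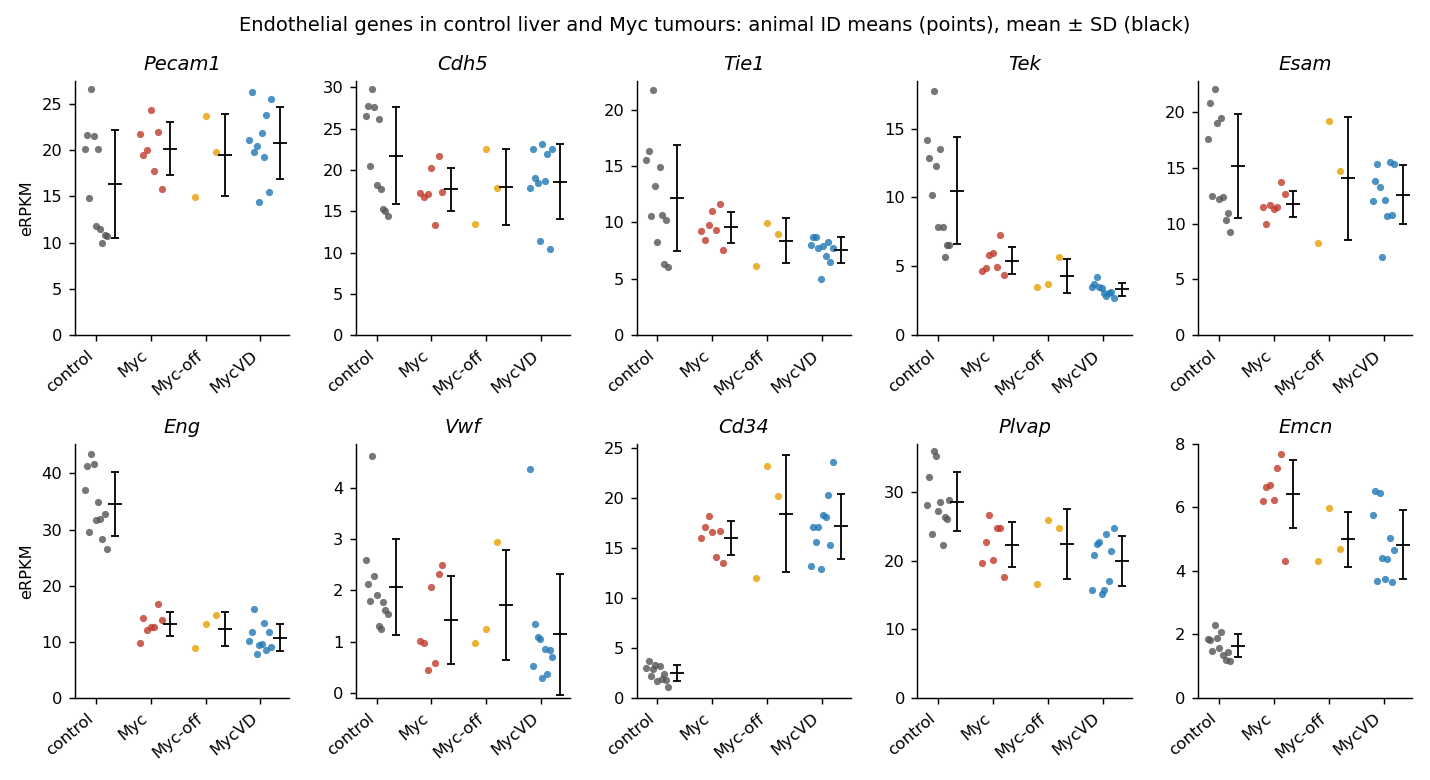
Level of each of the 10 endothelial genes in eRPKM (vertical axis, from 0 or just below it) by group (horizontal axis). Each point is an animal ID (11 control, 7 Myc, 3 Myc-off, 10 MycVD), and the black marks give the group mean and SD. Cd34 and Emcn lie higher, and Eng lower, in every tumour ID than in any control.

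Differences between groups were tested with limma on log2(eRPKM + 0.5) of ID means, 4 groups in 1 fit, with Benjamini-Hochberg adjustment over the 14566 genes and a threshold of 0.05. Fold changes below are on that scale, with standard errors. Nothing says how the mice were related, so the p-values measure the spread between these IDs. Myc tumours were compared with control liver first. Of the 10 genes 2 were higher in Myc tumours, where 50.4% of all genes tested were called higher. Another 3 of 10 were lower, where 29.7% of all genes were called lower. The median log2 fold change of the 10 was -0.28, against 0.28 over all genes tested. The share of the 10 called lower is near that of all genes and the share called higher is below it, so these counts alone do not set the 10 apart.

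The sialomucins of the endothelial surface gave the largest rises of the 10. Cd34, which encodes a surface sialomucin of continuous capillaries and of blood progenitor cells, lay at 1.07 to 3.75 eRPKM in the 11 controls (median 2.36). It lay at 13.5 to 18.2 in the 7 Myc tumour IDs (median 16.6), at 12.0, 20.2 and 23.2 in the Myc-off IDs and at 12.9 to 23.6 in the 10 MycVD IDs (median 17.1). Every tumour ID was above every control, and the tumour groups overlapped each other. Against control liver Cd34 rose by 2.52 ± 0.16 in Myc tumours, a 5.74-fold change (adjusted p = 2.7e-15, limma).

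Emcn encodes endomucin, another sialomucin of capillary and venous endothelium. It lay at 1.15 to 2.31 eRPKM in controls (median 1.56), at 4.30 to 7.68 in Myc tumour IDs (median 6.65), at 4.30, 4.70 and 5.97 in Myc-off IDs and at 3.64 to 6.52 in MycVD IDs (median 4.55). Again no tumour ID reached down to the controls. Emcn rose by 1.69 ± 0.13 in Myc tumours, a 3.22-fold change (adjusted p = 3.9e-13, limma). Both calls held under all 31 alternatives, from 2.05 to 2.74 for Cd34 and from 1.14 to 1.91 for Emcn.

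Because both genes rose against control liver in all 3 tumour groups, the 250 bases before their start sites are shown, as RefSeq gives them on GRCm38.p6. Capitals mark the letters CTTCCTG, which read CAGGAAG on the opposite strand, a form of the site that ETS factors of endothelium can bind.

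Cd34, chr1:194938571-194938820, plus strand: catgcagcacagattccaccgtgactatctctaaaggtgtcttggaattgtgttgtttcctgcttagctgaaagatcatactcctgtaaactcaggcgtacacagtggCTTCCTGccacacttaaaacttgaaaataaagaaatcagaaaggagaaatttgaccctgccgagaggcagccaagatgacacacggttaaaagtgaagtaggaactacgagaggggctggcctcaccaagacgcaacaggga

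Emcn, chr3:137340828-137341077, plus strand: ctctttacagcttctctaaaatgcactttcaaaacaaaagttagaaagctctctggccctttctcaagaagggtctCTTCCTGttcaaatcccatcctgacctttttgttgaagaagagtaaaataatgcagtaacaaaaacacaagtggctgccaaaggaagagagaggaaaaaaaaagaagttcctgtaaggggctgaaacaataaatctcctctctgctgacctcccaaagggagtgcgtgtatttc

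The marked letters begin 142 bases before the Cd34 start and 174 bases before the Emcn start. Promoters of 5 of the 10 genes were matched by symbol in the RefSeq table: Tie1, Tek, Eng, Cd34 and Emcn. Searched on both strands, CAGGAAG was in 2 of these 5 (Cd34 and Emcn) and in 10.8% of all 32851 promoters of 250 bases. The related letters CCGGAAG (6.91% of all promoters) and the E-box CACGTG (6.02%), which Myc can bind, were in none of the 5. No match of these motifs is also a match of another. A match describes the letters in this window and is not a site.

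Among the receptors Eng and Tek fell, while Tie1 was not called in Myc tumours. Eng, whose product endoglin is a co-receptor for BMP9 and other TGF-beta family ligands, lay at 26.6 to 43.5 eRPKM in controls (median 32.7). It lay at 9.87 to 16.8 in Myc tumour IDs (median 12.7), at 8.92, 13.2 and 14.8 in Myc-off IDs and at 7.85 to 15.9 in MycVD IDs (median 9.91). No tumour ID reached the lowest control. Eng fell by 1.35 ± 0.13 on the log2 scale in Myc tumours (adjusted p = 2.8e-11, limma), and the call held under all 31 alternatives, with values from -1.77 to -1.21.

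Tek, which encodes TIE2, the receptor of the angiopoietins, lay at 5.69 to 17.7 eRPKM in controls (median 10.2). It lay at 4.39 to 7.26 in Myc tumour IDs (median 4.96), at 3.49, 3.74 and 5.70 in Myc-off IDs and at 2.68 to 4.25 in MycVD IDs (median 3.30). The Myc and Myc-off ranges reach just into the lowest controls, and the MycVD range does not. Tek fell by 0.82 ± 0.17 on the log2 scale in Myc tumours (adjusted p = 6.5e-05, limma). The size depended on the controls and the scaling: it was -0.48 with the 5 controls of the highest ID numbers (adjusted p = 0.013), -1.27 with quantile normalisation and -1.32 with depth as a covariate.

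Tie1 encodes TIE1, a partner of TIE2 with no ligand of its own in the classical scheme. It lay at 6.09 to 21.7 eRPKM in controls and at 7.58 to 11.6 in Myc tumours, a log2 fold change of -0.25 ± 0.18 (adjusted p = 0.2, limma). The Myc tumour range sits inside the control range.

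The junction genes overlapped widely between liver and Myc tumours. Pecam1, which encodes a junction and signalling protein also found on platelets and leukocytes, averaged 16.3 ± 5.81 eRPKM over 11 controls (SD) and 20.1 ± 2.83 over 7 Myc IDs, and its log2 fold change was 0.36 ± 0.17 (adjusted p = 0.052, limma). Cdh5 averaged 21.7 ± 5.90 and 17.7 ± 2.65, a log2 fold change of -0.26 ± 0.17 (adjusted p = 0.15). Esam averaged 15.1 ± 4.65 and 11.8 ± 1.18, a log2 fold change of -0.30 ± 0.17 (adjusted p = 0.11). None of these 3 was called, and their 95% intervals run from 0.02 to 0.71 for Pecam1, from -0.60 to 0.08 for Cdh5 and from -0.65 to 0.05 for Esam. Pecam1 was called, at 0.39 to 0.44, when control ID125319, ID125322, ID128988, ID128993 or ID132859 or Myc ID126948 or ID130395 was left out. It was also called with libraries as samples (0.42), with the ID as a random block (0.39) and, in alternatives added after seeing the data, without the 8 libraries low in Gapdh (0.42) and without the shallowest library (0.36, adjusted p = 0.049). Esam was called, at -0.31 (adjusted p = 0.04), with libraries as samples. An interval is not adjusted over genes, which is why that of Pecam1 can leave out 0 without a call.

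Plvap, which encodes the protein of the diaphragms that span endothelial openings, was the most abundant of the 10 over all IDs. It lay at 22.3 to 36.0 eRPKM in controls (median 28.1) and at 17.6 to 26.6 in Myc tumour IDs (median 22.8), with an overlap. Plvap fell by 0.35 ± 0.11 on the log2 scale (adjusted p = 0.0063, limma). The call was lost with only the 5 higher-numbered controls (-0.25, adjusted p = 0.1) and without the 8 libraries low in Gapdh (-0.19, adjusted p = 0.14).

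Vwf encodes von Willebrand factor, the clotting protein of larger vessels and megakaryocytes, and was the most variable of the 10. It lay at 1.24 to 4.63 eRPKM in controls and at 0.456 to 2.49 in Myc tumour IDs, a log2 fold change of -0.49 ± 0.29 (adjusted p = 0.12, limma). The high control was ID125322, which also had the highest Pecam1, Cdh5, Tie1, Tek, Esam, Eng, Plvap and Emcn of the controls and was 1 of the 8 libraries low in Gapdh.

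For Pecam1, Cdh5, Tek and Emcn the controls themselves divided with their ID number, Tek and Emcn by a narrow gap. The share of all genes that divide these livers in the same way was not counted. The 4 controls with the highest numbers lay at 9.93 to 11.5 eRPKM for Pecam1 and the other 7 at 11.8 to 26.6. For Cdh5 the same 4 lay at 14.4 to 17.7 and the other 7 at 18.2 to 29.8. For Tek they lay at 5.69 to 7.86 against 7.87 to 17.7, and for Emcn at 1.15 to 1.45 against 1.47 to 2.31. The 4 were also shallower, at 5.63 to 6.07 M reads against 6.67 to 8.95 M, and the part of depth or date in these levels was not tested. Eng, Plvap, Cd34, Tie1, Esam and Vwf overlapped between the 4 and the 7.

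**Figure D2:**
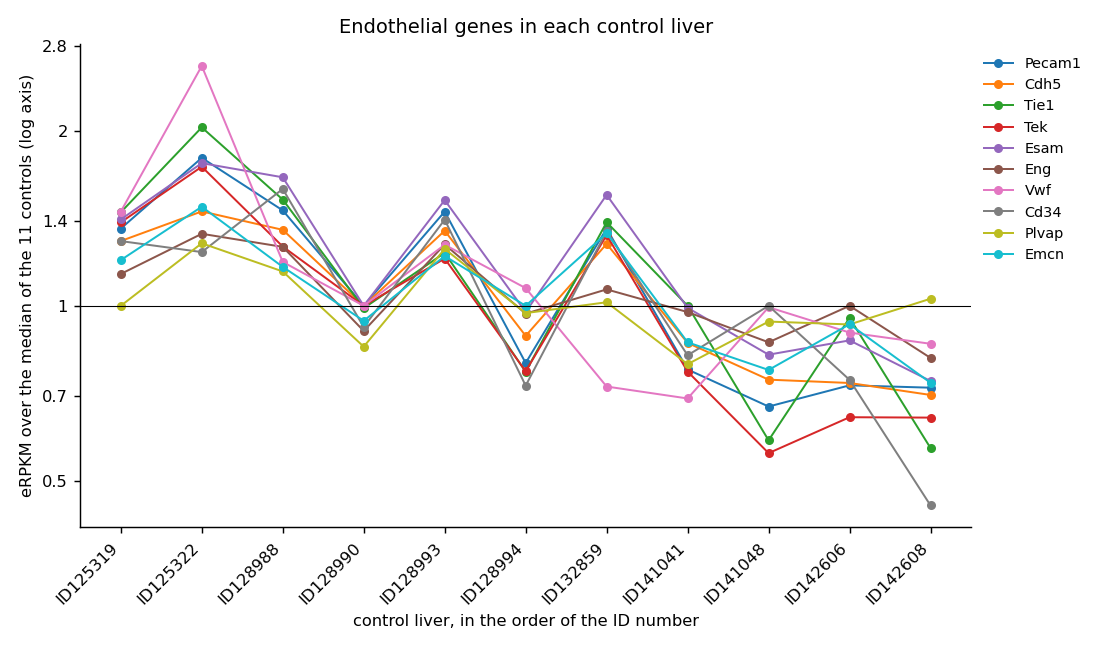
Level of each endothelial gene in each of the 11 control livers, divided by the median of the 11 (vertical log axis), in the order of the ID number (horizontal axis). Each line is a gene. Control ID125322 is the highest for most genes, and the 4 controls on the right lie low for Pecam1, Cdh5 and Tek.

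The choice of controls changed the calls of the junction genes and Tie1. With only the 6 controls numbered no higher than the Myc tumours, 8 of the 10 genes were called, with Cdh5 at -0.49 (adjusted p = 0.013), Tie1 at -0.50 (adjusted p = 0.0084) and Esam at -0.51 (adjusted p = 0.011). With only the 5 higher-numbered controls Cdh5 stood at 0.02 and Tie1 at 0.06, neither called, while Pecam1 rose by 0.69 (adjusted p = 0.00046). Cd34, Emcn, Eng and Tek kept their calls with either set.

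Scaling mattered in the same way. Median-ratio scaling or quantile normalisation moved the median of all genes in Myc tumours against control liver from 0.28 to 0.05, and the share of calls that were higher from 62.9% to 52.2% and 51.9%. Relative to that shift 9 of the 10 genes were called under each, 2 higher and 7 lower: Cdh5 stood at -0.50 and -0.51, Tie1 at -0.49 and -0.65, Esam at -0.54 and -0.65 and Vwf at -0.67 and -1.03. Pecam1 was the gene not called. With depth as a covariate 8 were called, and Pecam1 stood at -0.13, not called.

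In the level of each gene relative to the mean of the other 9 in the same ID, a scaling factor of the library cancels but for the pseudocount. By this measure, a difference of log2 values, Cd34 was -1.99 ± 0.25 (SD) in controls, 0.72 ± 0.18 in Myc tumours, 0.94 ± 0.18 in Myc-off tumours and 1.02 ± 0.29 in MycVD tumours. Eng went the other way, at 2.0 ± 0.18, 0.41 ± 0.20, 0.34 ± 0.09 and 0.29 ± 0.34. Tek was at 0.07 ± 0.22 in controls and at -0.93 ± 0.12, -1.23 ± 0.34 and -1.42 ± 0.23 in the tumour groups, and Emcn at -2.47 ± 0.16 against -0.68 ± 0.25, -1.0 ± 0.28 and -0.90 ± 0.28. For Cd34, Emcn, Eng and Tek all 20 tumour IDs lay outside the range of the controls. For the other 6 genes 10 to 17 of the 20 did. The mean set against these 6 holds Cd34, Emcn, Eng and Tek, so their relative level can move even where the gene itself does not change. The share of all genes that leave the control range was not counted. These values are a description, since each gene also enters the mean of the others.

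The other tumour groups, compared with the same 11 controls, gave the following values. In MycVD tumours 3 of the 10 genes were called higher, where 49.2% of all genes were, and 5 lower, where 31.1% were. Cd34 rose by 2.60 ± 0.14, Emcn by 1.30 ± 0.12 and Pecam1 by 0.39 ± 0.15 (adjusted p = 0.02). Eng fell by 1.65 ± 0.11 on the log2 scale, Tek by 1.45 ± 0.15, Plvap by 0.52 ± 0.10, Tie1 by 0.57 ± 0.16 (adjusted p = 0.002) and Vwf by 0.79 ± 0.26 (adjusted p = 0.0067, all from limma). Cd34, Emcn, Eng, Tek and Plvap had adjusted p of 4e-05 or less. The Pecam1 call was lost with either scaling, with depth as a covariate and with the 6 lower-numbered controls (0.12 to 0.22), and those of Tie1 (-0.27) and Vwf (-0.48) with the 5 higher-numbered controls. With either scaling, the depth term or the 6 lower-numbered controls Cdh5 (-0.36 to -0.44) and Esam (-0.40 to -0.49) were called lower.

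In Myc-off tumours 2 of the 10 were called higher against control liver, where 37.3% of all genes were, and 3 lower, where 20.9% were. Cd34 rose by 2.67 ± 0.21 and Emcn by 1.36 ± 0.18. Eng fell by 1.46 ± 0.17 on the log2 scale, Tek by 1.14 ± 0.23 and Plvap by 0.35 ± 0.15 (adjusted p = 0.049, limma). Without the Myc-off ID150584 Plvap stood at -0.16 (adjusted p = 0.46). The call was also lost, at -0.36 to -0.32, when any of 7 controls was left out (ID125319, ID125322, ID128988, ID128993, ID128994, ID132859 or ID142608), as it was without the shallowest library (-0.31) and with the 5 higher-numbered controls (-0.25). Neither the fit without the filter (-0.35) nor that of the 2 groups alone (-0.35) kept it. In all, the Plvap call was lost under 13 of 27 alternatives. Tie1 stood at -0.45 ± 0.24 (adjusted p = 0.11) and was called, at -0.53, without control ID141048 or ID142608. It was also called at -0.73 with quantile normalisation, -0.63 with median-ratio scaling, -0.70 with the 6 lower-numbered controls, -0.52 with libraries as samples and -0.50 with the ID as a random block. Pecam1 was called, at 0.63, with the 5 higher-numbered controls, and Vwf, at -0.93, with quantile normalisation. In the 3 comparisons with control liver median-ratio scaling moved the share of calls that were higher from 61.3% to 52.1% for MycVD and from 64.1% to 49.1% for Myc-off tumours.

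**Figure D3:**
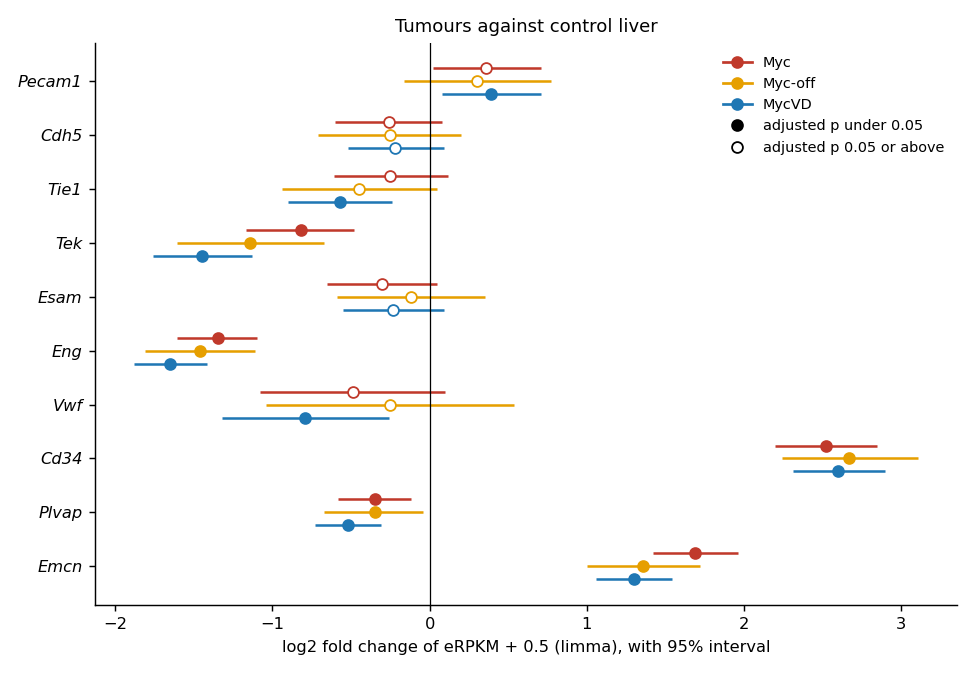
Log2 fold change of each endothelial gene (rows) in Myc, Myc-off and MycVD tumours against the same control livers, from limma on log2(eRPKM + 0.5), with 95% intervals. Filled points passed an adjusted p of 0.05. Cd34 and Emcn lie to the right of 0 and Eng, Tek and Plvap to the left in all 3 comparisons.

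The comparison of Myc-off with Myc tumours asks what 16 h without the transgene does to an established tumour. None of the 10 endothelial genes was called by limma, 0 higher and 0 lower, and none had an unadjusted p under 0.05. Over all genes 22.8% were called higher and 28.0% lower. No other tool was run. The largest differences were those of Emcn, at -0.33 ± 0.19 (adjusted p = 0.14), Tek, at -0.31 ± 0.24 (adjusted p = 0.31), and Vwf, at 0.24 ± 0.41 (adjusted p = 0.66). With 3 Myc-off IDs the 95% intervals stayed wide, from -0.31 to 0.62 for Cd34, from -0.47 to 0.26 for Eng and from -0.48 to 0.49 for Cdh5. These intervals surround the estimates and are not limits of detection. The smallest change that would be called in this comparison was not tested, so a gene that was not called may still differ.

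ID150584 was the lowest of the 3 Myc-off IDs for all 10 genes, for example at 8.26 eRPKM for Esam against 14.7 and 19.2. It holds the shallowest library of the series, at 3.25 M reads. Emcn was called lower, at -0.35 (adjusted p = 0.024), when every library counted as its own sample, and Esam higher, at 0.67 (adjusted p = 0.026), with depth as a covariate.

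Of 10 sinusoidal genes 4 were called higher in Myc-off against Myc tumours, 0 lower and 6 not called (list median 0.84): Stab1 by 1.34 ± 0.30 (adjusted p = 0.00033), Fcgr2b by 1.12 ± 0.37, Oit3 by 1.06 ± 0.43 and Clec4g by 1.76 ± 0.75 (adjusted p = 0.05 after rounding). Whether this list and the 10 endothelial genes differ was not tested. Stab1 and Oit3 are named because they were among the 4, after their values were seen.

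The comparison of MycVD with Myc tumours asks what the V394D substitution, known to weaken the contact of Myc with Miz1, changes in the tumour. Of the 10 genes 0 were called higher, where 6.14% of all genes were, and 2 lower, where 9.69% were. The Tek ranges given above do not overlap between these groups, at 2.68 to 4.25 eRPKM in MycVD and 4.39 to 7.26 in Myc tumours. Tek fell by 0.62 ± 0.17 on the log2 scale (adjusted p = 0.015, limma). The call held when any ID was left out and was lost with depth as a covariate, at -0.30 (adjusted p = 0.33).

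Emcn fell by 0.39 ± 0.13 on the log2 scale in MycVD against Myc tumours, close to the threshold (adjusted p = 0.045, limma). It was lost at -0.42 to -0.25 under 7 other settings, and when any of 6 of the 7 Myc IDs (all but ID126948) or 7 of the 10 MycVD IDs (all but ID133074, ID133079 and ID133762) was left out. Eng stood at -0.30 ± 0.13 (adjusted p = 0.11) and was called, at -0.36 (adjusted p = 0.038), without MycVD ID134660. Cd34 (0.08 ± 0.16), Pecam1 (0.03 ± 0.17), Cdh5 (0.04 ± 0.17) and Esam (0.07 ± 0.18) were not called, with intervals that reach no farther than -0.32 and 0.43. Over all genes 38.8% of the calls in this comparison were higher, against 55.6% with median-ratio scaling and 61.3% of fewer calls (959) with depth as a covariate.

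**Figure D4:**
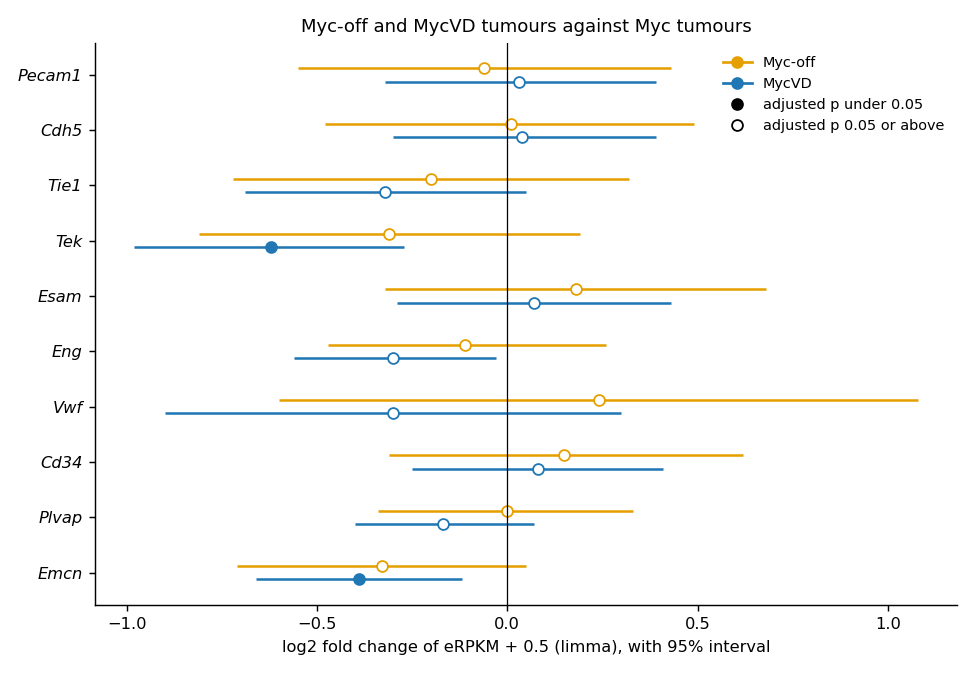
Log2 fold change of each endothelial gene (rows) in Myc-off and MycVD tumours against Myc tumours, from limma, with 95% intervals. Filled points passed an adjusted p of 0.05, which only Tek and Emcn did, both in MycVD tumours.

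A sinusoidal gene was set against a pan-endothelial gene within the same libraries. Stab2 averaged 27.6 ± 7.93 eRPKM in controls, 5.07 ± 2.64 in Myc, 7.60 ± 3.61 in Myc-off and 2.37 ± 2.08 in MycVD tumours. The log2 ratio of Stab2 to Cdh5 was 0.35 ± 0.28 in controls (SD, n = 11), -1.84 ± 0.57 in Myc (n = 7), -1.27 ± 0.54 in Myc-off (n = 3) and -2.94 ± 1.05 in MycVD tumours (n = 10). All tumour IDs lay below all controls (-0.13 to 0.77). Over 5 comparisons with Benjamini-Hochberg adjustment, two-sided exact permutation tests gave a difference of -2.19 for Myc against control (adjusted p = 0.00016) and of -1.61 for Myc-off against control (adjusted p = 0.0092). A permutation test with 100000 resamples gave -3.29 for MycVD against control (adjusted p = 0.00016). For Myc-off against Myc the exact permutation test gave 0.58 (adjusted p = 0.18), and for MycVD against Myc -1.10 (adjusted p = 0.031), which was lost, at -1.04 to -0.93, when Myc ID125324, ID126948 or ID128285 or MycVD ID133079, ID133761, ID133762, ID133764 or ID134664 was left out.

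Tumours from the same ID differed from each other. Among the 5 Myc IDs with several tumours, the SD of log2 values was 0.26 within an ID and 0.14 between ID means for Cd34, 0.25 and 0.27 for Eng, 0.28 and 0.28 for Tek, and 0.13 and 0.23 for Pecam1. To 2 decimals the SD within IDs was the larger for 4 of the 10 genes (Esam, Vwf, Cd34 and Plvap). Vwf had the widest spread, with an SD of 0.76 within IDs. In ID125324 its 4 tumours lay at 0.522, 0.671, 1.88 and 5.21 eRPKM, from 58 to 628 reads. In Myc-off ID153344 they lay at 0.749, 3.35 and 4.75. The other 9 genes differed at most 2.47-fold between tumours of 1 ID (Tie1 in ID150584).

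Within control liver the genes varied together. Over the 11 controls the correlation of each gene with the mean of the other 9 (log2 values) ran from r = 0.64 for Vwf to r = 0.98 for Pecam1 and Esam, with a median of 0.94. All 10 had an adjusted p under the threshold (permutation tests with 100000 resamples, adjusted over 30 relations in the 3 groups large enough), and 8 did by Spearman's rho. With median-ratio scaling, tried after seeing the data, 8 of the 10 passed for r, and Vwf (r = 0.58, adjusted p = 0.096, permutation) and Plvap (r = 0.53, adjusted p = 0.18, permutation) did not. Pecam1 had r = 0.98 and rho = 0.99 (adjusted p = 0.0001 for each, permutation), and r = 0.97 without the 2 IDs farthest from the median. Vwf had r = 0.64 and rho = 0.65 (adjusted p = 0.048 and 0.1, permutation), and r = 0.36 without those IDs. The controls share the division by ID number and depth described above. The share of all genes that correlate as closely with such a mean was not counted, here or in the tumour groups.

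In Myc tumours (n = 7) r ran from 0.11 to 0.89 with a median of 0.46, and 1 of the 10 relations passed by exact permutation, that of Tek (r = 0.89, adjusted p = 0.023, rho = 0.71, adjusted p = 0.22), which fell to r = 0.37 without 2 IDs. In MycVD tumours (n = 10) r ran from -0.18 to 0.82 with a median of 0.31. Tie1 (r = 0.82, adjusted p = 0.013, rho = 0.68, adjusted p = 0.1) and Esam (r = 0.72, adjusted p = 0.044, rho = 0.44, adjusted p = 0.36) passed by permutation for r and not for rho. Without 2 IDs they stood at r = 0.34 and 0.60. With median-ratio scaling Cdh5 also passed in Myc tumours (r = 0.85, adjusted p = 0.02, exact permutation), and Esam no longer did in MycVD tumours (r = 0.66, adjusted p = 0.085, permutation). Whether the groups differ in these correlations was not tested.

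Over all 31 IDs, with group means removed, the genes most like the mean of the 10 were Cnn2 (r = 0.88), Pwp2 (0.87), Gpn2, Pde2a, L3mbtl2, Itm2c and Flt1 (0.86 each) and Man1b1 (0.85). These are descriptions over points that share libraries and depth. Flt1 encodes the VEGF receptor VEGFR-1 and Pde2a a phosphodiesterase, while Pwp2 encodes a protein of ribosome assembly. Flt1 stood at -0.13 ± 0.17 in Myc tumours against control liver, not called, whereas Pwp2 rose by 1.52 and Pde2a fell by 1.01 on the log2 scale. Among the 10 themselves the correlation with that mean ran from 0.46 (Vwf) to 0.92 (Tie1). That mean contains each of the 10, which raises these values, so they cannot be set beside those of the 8 genes.

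Other genes linked to endothelium, ligands included, were listed by role with earlier results known and were mixed in direction as well. Their levels are those of whole tissue and do not show which cells made the RNA. The counts below stand beside the shares over all genes given above: 50.4% called higher and 29.7% lower in Myc tumours against control liver, 22.8% and 28.0% in Myc-off against Myc tumours, and 6.14% and 9.69% in MycVD against Myc tumours. Of 22 further pan-endothelial genes 4 were higher and 11 lower in Myc tumours (median log2 fold change -0.37). The summed level of these 22 was 224 to 379 eRPKM in controls (median 272) and 206 to 228 in Myc tumour IDs (median 210). S1pr1, the sphingosine-1-phosphate receptor and the most abundant of them, fell by 1.62 ± 0.14 on the log2 scale (65.9 to 20.7 eRPKM), and Kank3 rose by 1.27 ± 0.13. In Myc-off against Myc tumours 1 of the 22 rose (S1pr1, by 0.66) and 1 fell (Kank3, by 0.81 on the log2 scale). In MycVD against Myc tumours 1 of the 22 fell. All 10 sinusoidal genes fell in Myc tumours, with a median of -2.61, from Gata4 at -0.68 to the lectin gene Clec4g at -4.56 (70.7 to 3.68 eRPKM).

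The ligands and receptors of VEGF split. Of 10 genes 3 rose and 5 fell in Myc tumours. Vegfa, the main angiogenic ligand, fell by 1.70 ± 0.10 on the log2 scale (58.4 to 17.7 eRPKM), while Vegfb rose by 1.71 ± 0.13 (7.72 to 25.7). Flt4, which encodes VEGFR-3, fell by 2.0 ± 0.19 on the log2 scale. Beside Tek, of its 3 tested partners Angpt2, the context-dependent ligand, rose by 2.39 ± 0.14 (3.59 to 20.9 eRPKM) and Angpt1, the activating ligand, by 0.46 ± 0.19, and Ptprb, which encodes the phosphatase VE-PTP of TIE2, fell by 1.89 ± 0.12 on the log2 scale (39.8 to 10.3).

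In Myc-off against Myc tumours 2 of the 10 VEGF ligand and receptor genes were called higher and 2 lower. Their log2 fold changes ran from -1.25 for Nrp2 to 0.85 for Vegfc. Vegfb fell by 1.05 and Angpt2 by 0.82 on the log2 scale, and Vegfa rose by 0.53, while Tek was not called. The VEGF list gave 1 higher and 2 lower in MycVD against Myc tumours, from Nrp2 at -1.45 to Pgf at 1.12. In that comparison Tek, Angpt1 (by 0.55) and Ptprb (by 0.41 on the log2 scale) fell, and Angpt2 was not called (-0.21). Of 10 tested endothelial transcription factor genes 4 rose and 4 fell in Myc tumours, from Ets1 at -0.80 ± 0.12 to Tal1 at 2.20 ± 0.46. Tal1 varied widely, from 0.848 to 1.65 eRPKM over controls and from 1.73 to 24.7 over Myc tumour IDs. The part of cells other than endothelium in its rise was not tested. Of 15 tested arterial, venous and tip cell genes 10 were higher and 4 lower (median 1.38). Vcam1, an adhesion receptor for leukocytes, rose by 3.49 ± 0.11 (5.87 to 70.1 eRPKM), Aplnr, the apelin receptor gene, by 3.53 ± 0.18, and Selp, which encodes P-selectin, fell by 2.66 ± 0.23 on the log2 scale. In MycVD against Myc tumours 3 of these 15 rose, with Apln, the apelin gene, at 1.12 ± 0.35, and 4 fell. None of the 15 was called in Myc-off against Myc tumours.

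**Figure D5:**
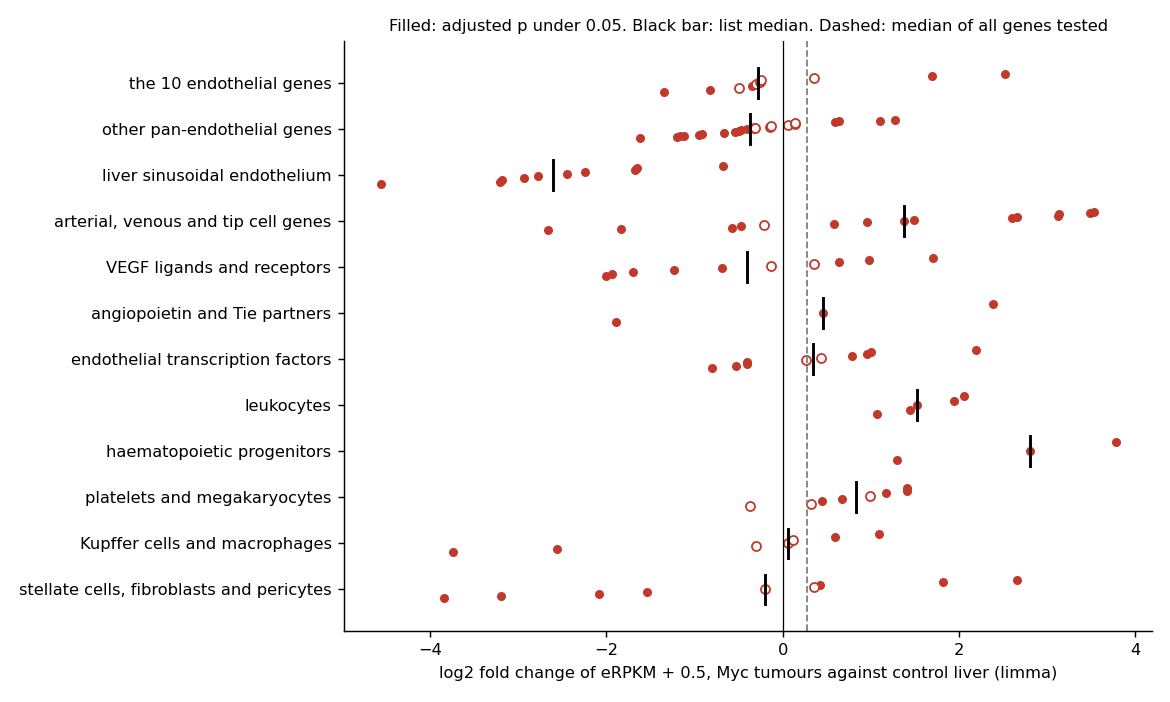
Log2 fold change in Myc tumours against control liver (horizontal axis, limma) of the genes of each list (rows). Points are genes, filled where the adjusted p is under 0.05. Black bars are list medians (-0.28 for the 10 endothelial genes, -2.61 for the sinusoidal genes), and the dashed line is the median of all genes tested (0.28).

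Cells other than endothelium also express some of these markers. Cd34 and Tek are expressed by blood progenitors, and Pecam1, Eng and Vwf by leukocytes, macrophages or megakaryocytes. All 5 leukocyte genes rose in Myc tumours, where 50.4% of all genes did, with a median of 1.52 and a summed level of 22.0 to 44.1 eRPKM in controls and 81.2 to 112 in Myc tumour IDs. All 3 tested progenitor genes rose: Mpo averaged 0.0525 eRPKM in controls and 8.78 in Myc tumours, Ctsg was at 0 in every control and averaged 3.54, and Kit rose by 1.30. Kit was not called in MycVD (0.29) or Myc-off tumours (0.12) against control liver, and against Myc tumours it fell by 1.01 in MycVD and by 1.19 in Myc-off tumours on the log2 scale. Mpo and Ctsg differed from Kit: both were called higher than control liver in MycVD and Myc-off tumours, and neither was called against Myc tumours. In the same 2 comparisons with Myc tumours Cd34 stood at 0.08 and 0.15, not called. The summed level of the 4 progenitor genes was 2.04 to 4.34 in controls, 11.2 to 28.8 over Myc, 5.85 to 28.7 over Myc-off and 5.77 to 81.0 over MycVD IDs.

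Of 8 tested platelet and megakaryocyte genes 5 were called higher in Myc tumours, near the 50.4% of all genes, and 0 lower, with a summed level of 9.58 to 24.7 eRPKM in controls and 13.8 to 74.6 in Myc tumours. In Myc-off against Myc tumours 2 of the 8 rose, while Vwf and Pecam1 were not called. Of 7 Kupffer cell and macrophage genes 2 rose and 2 fell, and Clec4f, a marker of liver-resident Kupffer cells, fell by 3.74 on the log2 scale. Of 9 genes of stellate cells, fibroblasts and pericytes 3 rose, led by Col1a1 at 2.66, and 4 fell, led by Lrat, at -3.84. All 3 tested hepatocyte genes fell, with a summed level of 370 to 692 in controls and 227 to 371 in Myc tumours. Of 2 tested lymphatic genes Prox1, which hepatocytes also express, fell by 0.95 on the log2 scale, and Pdpn was at 0.559 eRPKM in controls and 0.331 in Myc tumours. The part of these other cells in the levels of the 10 genes was not tested.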

How the data were processed

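Total RNA of 46 FVB mouse samples was depleted of ribosomal RNA and made into TruSeq v2 libraries, which do not mark strand, per the labels' protocols. Genes that overlap on the other strand can therefore share reads. The authors deposited a table of exonic RPKM values. The names TopHat, TopHat2 (version 2.0.8) and mm9, a mouse genome build, are listed per the submitters' processing notes. The steps of counting reads, the gene models and the treatment of duplicates were not given in the sources used here. The deposited RPKM values are whole multiples of a step per gene, which gave each gene's length and each library's depth: 100.00% of the values above 0 in 18783 genes were whole reads within 0.001. No per-sample column was left out.

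Libraries with the same ID were averaged. That an ID stands for an animal is assumed. A gene needed 1 eRPKM or more in 3 or more IDs, which kept 14566 genes and removed 7105. Log2(eRPKM + 0.5) values were fitted with limma (version 3.58.1, R 4.3.3) through lmFit, contrasts and a trended eBayes, with two-sided p-values adjusted by Benjamini-Hochberg at 0.05. A log2 fold change on this scale understates the change of low genes. Tested on simulated data for Myc tumours against control liver with 14566 genes, the fit recovered 90% of genes changed by 1 and 96% of those changed by 2 on the log2 scale. In that simulation the noise was independent between genes, only a small part of the genes was shifted, and depth and scaling did not differ. Recovery under the conditions of the data was not tested. Ratios and correlations used permutation tests in scipy 1.17.1.

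The 10 genes, the lists and the tests were chosen with earlier results of these data known. The text names the 10 genes, the 8 genes most correlated with their mean, and from each list the most abundant gene and those with the largest and smallest fold change in a comparison. Genes outside that rule are given as members of a count. Alternatives were other pseudocounts (0.1 and 1), no filter, quantile and median-ratio scaling, libraries as samples, the ID as a random block, depth as a covariate, the 2 groups alone, subsets of controls and leaving out each ID. Leaving out the libraries low in Gapdh or the shallowest library was added after seeing the data, as was median-ratio scaling of the correlations. Groups share no replicate numbers.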

Additional observations from a re-analysis of the deposited data

Results flagged for a closer look

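Vwf in the MycVD tumour of ID133074 lay at 4.37 eRPKM, far from the other 9 MycVD IDs, of which the next highest was at 1.34. The gap to that ID took up 0.74 of the whole range of the 10. This was the only such value among 22 groups of values examined, and chance flags about 1 in 20.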

How the results depend on the processing

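Of 1410 fold changes of the 10 genes under alternatives, 1275 kept their direction and their side of the threshold, 42 lost a call, 47 gained a call and 46 changed sign. All sign changes were of genes that were not called. Cd34, Emcn and Eng kept their calls against control liver in all 3 tumour groups under every alternative, as did Tek. The number of the 10 genes called in Myc tumours against control liver was 5, and 9 with quantile normalisation, 9 with median-ratio scaling, 8 with depth as a covariate and 8 with the 6 lower-numbered controls. In Myc-off against Myc tumours it was 0, and 1 with every library as its own sample and 1 with depth. In MycVD against Myc tumours it was 2, and 1 with a pseudocount of 0.1, without the filter, with quantile or median-ratio scaling, with the ID as a random block and with the 2 groups alone, 0 with depth, and 1 to 2 leaving out each ID. The Stab2 to Cdh5 log2 ratio in MycVD against Myc tumours ran from -1.29 to -0.93 leaving out each ID. The cause of these shifts was not tested.

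Signs changed as follows. With the 5 higher-numbered controls, against control liver, Cdh5 stood at 0.02 and Tie1 at 0.06 in Myc tumours, Cdh5 at 0.06 and Esam at 0.03 in MycVD tumours, and Cdh5 at 0.02, Esam at 0.14 and Vwf at 0.06 in Myc-off tumours. With depth as a covariate Pecam1 stood at -0.13 in Myc tumours against control, and in Myc-off against Myc tumours Pecam1 stood at 0.43, Tie1 at 0.30, Tek at 0.19, Eng at 0.31 and Plvap at 0.32, and in MycVD against Myc tumours Plvap at 0.05. In Myc-off against Myc tumours quantile normalisation gave 0.08 for Pecam1, 0.04 for Eng and 0.12 for Plvap, and median-ratio scaling 0.003 for Pecam1 and 0.06 for Plvap. With libraries as samples Cdh5 stood at -0.09 and Plvap at 0.04, with the random block Cdh5 at -0.05 and Plvap at 0.03, and without the shallowest library Plvap at 0.04. In MycVD against Myc tumours Pecam1 stood at -0.04 and Cdh5 at -0.0008 with libraries as samples, and Pecam1 at -6e-05 with the random block. Leaving out each ID gave, in Myc-off against Myc tumours, -0.21 to 0.12 for Pecam1, -0.17 to 0.19 for Cdh5, -0.08 to 0.50 for Esam, -0.25 to 0.10 for Eng, -0.13 to 0.48 for Vwf, -0.03 to 0.43 for Cd34 and -0.12 to 0.19 for Plvap. It gave -0.02 to 0.09 for Pecam1 and -0.02 to 0.13 for Cdh5 in MycVD against Myc tumours, and -0.38 to 0.20 for Esam in Myc-off against control. The correlation of Eng with the other 9 in MycVD tumours was -0.14 with median-ratio scaling. No paired analysis was possible because the groups share no replicate numbers.

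Depth limits the low genes most: Cd34 rests on 17 to 82 reads in controls and Vwf on 19 to 449 in MycVD tumours.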
